A study of Mus musculus with 8 samples.

Results

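The Vps, Chmp and Snx genes code for many of the proteins that sort cargo in endosomes. They were taken as every gene symbol on the array that begins with Vps, Chmp or Snx followed by a digit, with 1 probe set per symbol, the one of highest mean signal. This gave 73 genes, 33 Vps, 10 Chmp and 30 Snx, out of 22664 symbols on 22206 probe sets. Only *Snx29* had a choice of probe sets, since 74 probe sets named a member. The probe set of *Vps51* also names *Tm7sf2*, and its signal cannot be assigned to either gene.

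The mice were C57/Bl6j males aged 14 weeks per the labels, and RNA came from their gastrocnemius (GAS) muscles. One GAS muscle of each animal received an adeno-associated virus of serotype 1 carrying a hairpin against the transcript of MYTHO (AAV sh-RNA MYTHO, called MYTHO here), and the opposite leg received a virus with a scrambled hairpin (AAV sh-RNA scrmb, called scrmb). Muscles were taken 3 weeks later, with 4 arrays per group. Both legs carried virus and both hairpins were driven by the U6 promoter, which is active in all cell types, so the comparison is between hairpins and not between virus and no virus. The animals are called A to D. RNA was taken from pieces of whole muscle, so fewer cells of a type and less RNA per cell cannot be told apart.

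Sorting begins when ubiquitinated receptors reach the early endosome. The ESCRT complexes gather them, and the CHMP filaments of ESCRT-III pinch the membrane inwards until the VPS4 ATPase pulls the filaments apart. Receptors that escape this route are carried back to the cell surface or the Golgi by retromer and by the sorting nexins, which bind phosphoinositides through a PX domain. The HOPS and CORVET tethers then bring endosomes, lysosomes and autophagosomes together for fusion, GARP and EARP tether carriers at the Golgi and at recycling endosomes, and the VPS13 proteins move lipids between organelles. In muscle fibres this system meets autophagy at the lysosome.

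The targeted transcript, *D230025D16Rik*, was at log2 signals of 11.35, 11.31, 10.78 and 11.05 in the scrmb legs of animals A to D and at 8.16, 8.20, 8.80 and 8.08 in the MYTHO legs. Its level was 14.2% of that in scrmb (log2 fold change -2.81 ± 0.21 SE, limma adjusted p = 0.00044; exact permutation p = 0.0286, two-sided, the smallest that 4 against 4 arrays allow). Array medians lay between 6.39 and 6.47. Myofibre markers averaged 19.30 to 19.40 in scrmb and 19.32 to 19.40 in MYTHO, close to the ceiling of the scale. Of the 8 slow fibre markers, 7 were higher in MYTHO at an unadjusted limma p under 0.05 and none at an adjusted p under 0.05, and their mean log2 signal ran from 11.61 to 13.70 in scrmb and from 11.68 to 14.88 in MYTHO. Of the 6 endothelial markers, 2 were higher in the same sense, and their mean ran from 9.58 to 10.04 in scrmb and from 10.25 to 10.38 in MYTHO. Of the 10 macrophage markers none differed at that level. On the first principal component the scrmb array of animal D, at 3.31, lay apart from the other scrmb arrays, at -45.4 to -25.7, and nearer to the MYTHO arrays, at 11.7 to 40.4.

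None of the 73 endosomal sorting genes passed an adjusted p of 0.05. The lowest adjusted p among them was 0.258 (limma, Benjamini-Hochberg over all probe sets), and 6 probe sets, or 0.027%, passed among all 22206. At an unadjusted p under 0.05, 1 member was higher in MYTHO, *Vps33b*, against a background of 4.81% of all probe sets, and 2 were lower, *Snx10* and *Snx2*, against a background of 7.58%. These are 1.37% and 2.74% of the members. A change of 2-fold or more together with a limma p under 0.05 before adjustment was reached by 0 members and by 1.51% of all probe sets.

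The differences of the members were small and centred on 0. Their median log2 fold change was 0.00, against -0.01 over all probe sets, with 37 values above and 36 below 0. The median size of the difference, 0.19 on the log2 scale, was close to the 0.20 of all probe sets and to the members' median standard error of 0.21. Values ran from -0.64 to 0.76, and the central span from the 10th to the 90th percentile was -0.35 to 0.35, against -0.44 to 0.38 over all probe sets. A log2 difference of 0.5 or more in size was seen in 5 members (6.85%), against 12.7% of all probe sets.

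**Figure D1:**
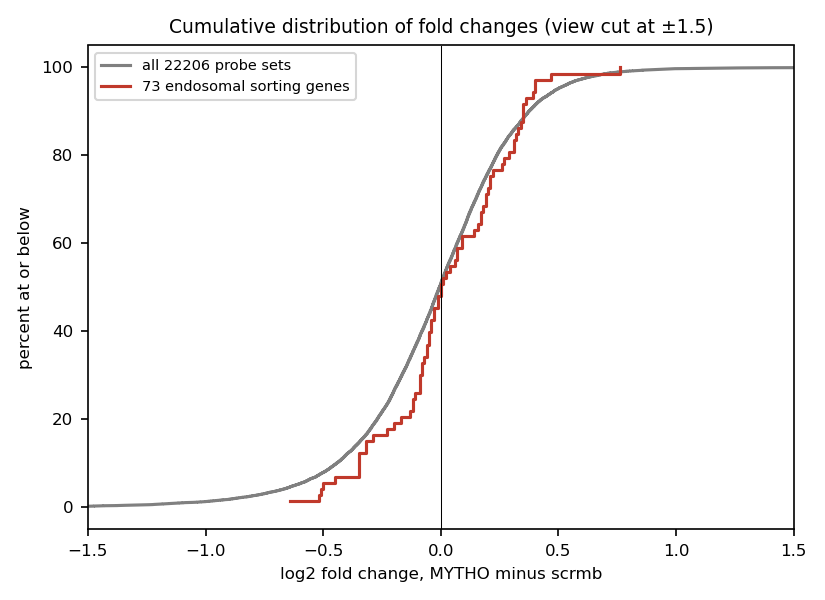
Cumulative distribution of the log2 fold change, MYTHO minus scrmb (x axis), as the percent of probe sets at or below each value (y axis), for the 73 endosomal sorting genes (red) and all 22206 probe sets (grey). Both curves cross the middle near 0, with medians of 0.00 and -0.01, and no member lies outside -0.64 to 0.76.

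The precision of 4 arrays per group bounds what could have been missed. The 95% limma interval lay within 2-fold either way for 66 of the 73 members (90.4%), against 84.2% of all probe sets. In the other 7 the interval reached past 2-fold on one side: *Vps33b*, *Snx25*, *Snx21* and *Snx32* upwards, and *Snx10*, *Vps37d* and *Vps8* downwards. The mean log2 signal of the members ran from 3.52 to 14.40, with 12 below the median of 6.40 over all probe sets. None was saturated.

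**Figure D2:**
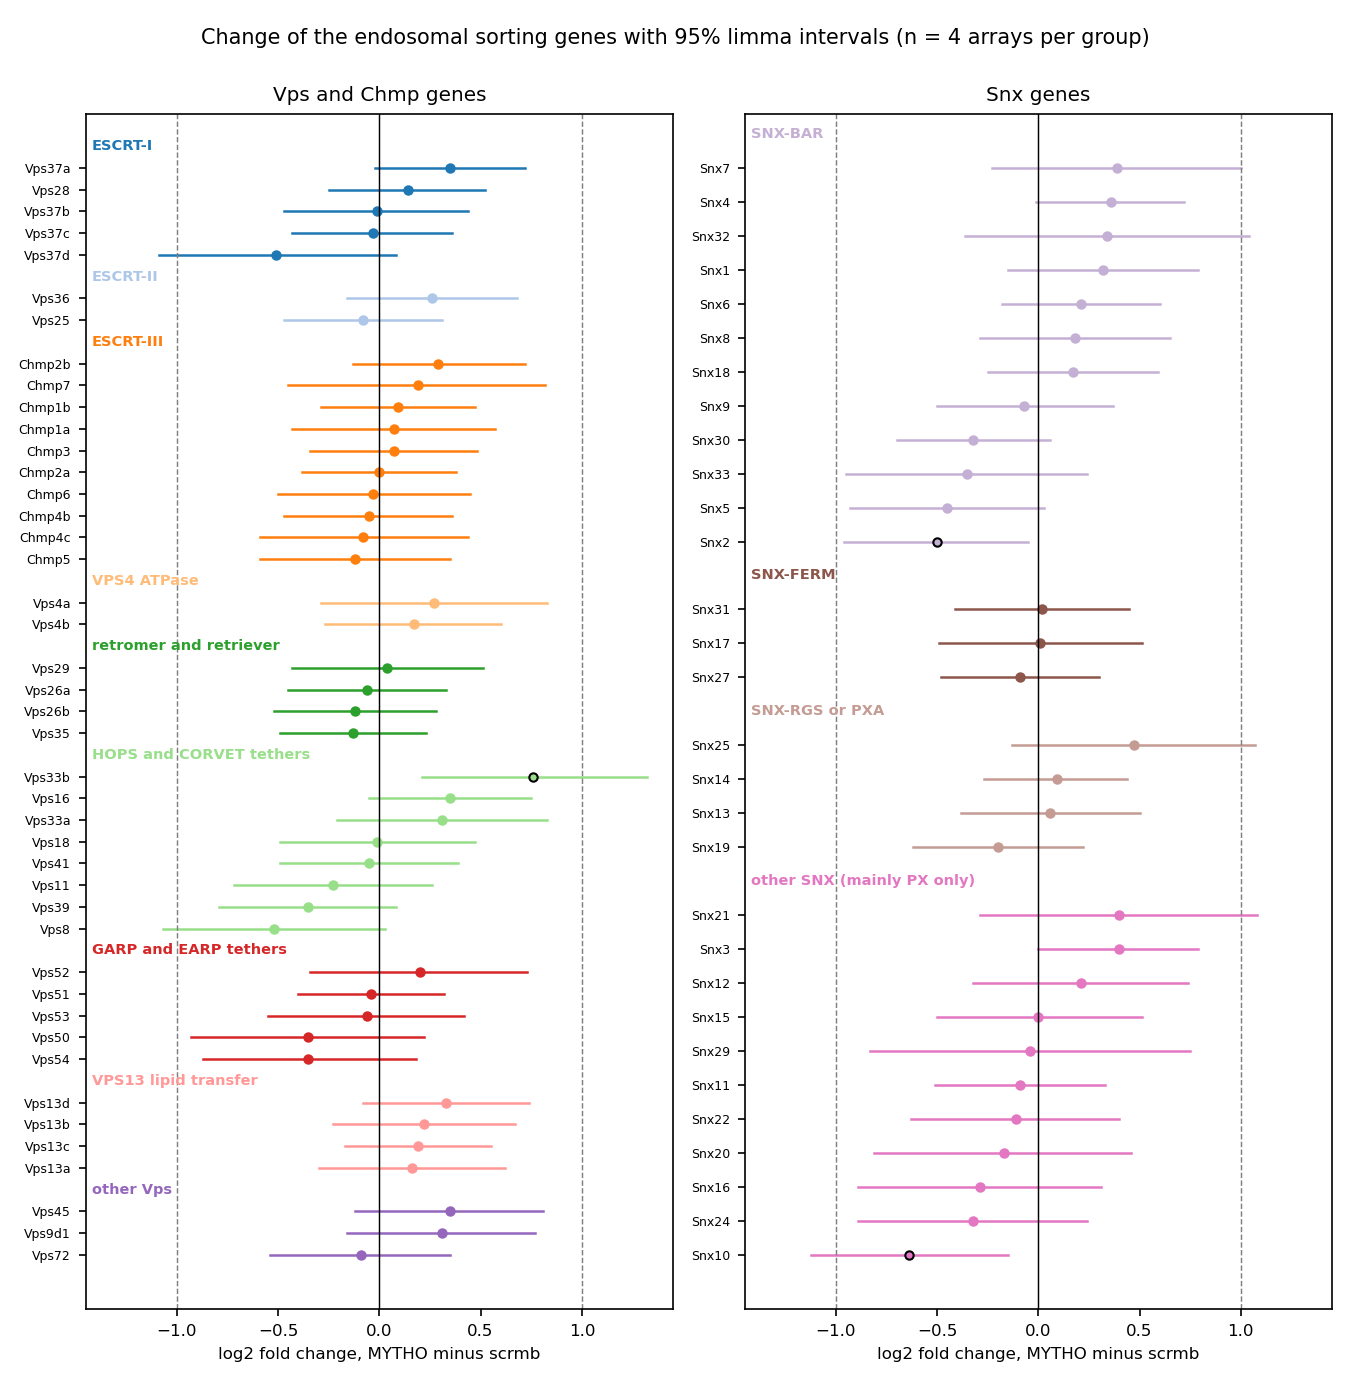
Log2 fold change, MYTHO minus scrmb (x axis), of each of the 73 genes, grouped by role, with 95% limma intervals from 4 arrays per group. Dashed lines mark 2-fold either way and black rings mark the 3 genes with an unadjusted p under 0.05; most intervals cross 0 and 66 stay within the dashed lines.

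Ubiquitinated cargo is handled first by the ESCRT genes. *Vps37a* codes for a subunit of ESCRT-I, the complex that recognises ubiquitinated cargo, and was the brightest member of that group across the arrays. In scrmb its log2 signals were 14.04, 14.11, 14.03 and 14.03 in animals A to D, and in MYTHO they were 14.69, 14.38, 14.23 and 14.31. Every MYTHO array lay above every scrmb array, by a mean of 0.35 ± 0.17 (SE), with an unadjusted limma p of 0.0612 and an adjusted p of 0.431. Its paralog *Vps37d* had a mean difference of the opposite sign. Its values were 6.13, 6.26, 5.89 and 6.22 in scrmb against 4.76, 5.93, 6.11 and 5.67 in MYTHO. The difference of -0.51 ± 0.27 (SE, limma adjusted p = 0.477) owed most to animal A, at -1.37 between its legs, while animal C was at 0.22. *Vps28*, *Vps37b* and *Vps37c*, the other ESCRT-I members, lay between -0.03 and 0.14.

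*Vps36* and *Vps25* code for subunits of ESCRT-II, which bridges ESCRT-I to the CHMP proteins. *Vps36* was at 11.64, 11.47, 11.45 and 12.01 in scrmb and at 11.69, 11.93, 11.82 and 12.16 in MYTHO, higher in the MYTHO leg of all 4 animals by 0.05 to 0.46, and its limma adjusted p was 0.641. The groups overlapped because the scrmb value of animal D was above 3 of the MYTHO values. *Vps25* differed by -0.08 ± 0.18 (SE).

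The 10 Chmp genes, the ESCRT-III filament proteins, had the narrowest spread among the groups of 8 genes or more. Their log2 fold changes ran from -0.12 (*Chmp5*) to 0.29 (*Chmp2b*), with a median of 0.03, 5 above and 5 below 0. The lowest limma adjusted p was 0.586, no gene was without overlap, and all 10 intervals lay within 2-fold. *Chmp2b*, which acts in the late steps of filament assembly, was at 9.18, 8.88, 9.02 and 8.69 in scrmb and at 9.17, 8.89, 9.36 and 9.52 in MYTHO. Animals A and B had nearly equal legs, and the mean difference came from C and D. *Chmp3*, the brightest Chmp gene, differed by 0.07 ± 0.19 (SE). *Chmp7*, which also works at the nuclear envelope, had the widest interval of the group, -0.45 to 0.82. It was at 9.51 in the scrmb leg of animal D and at 8.32 to 8.52 in the other 3 scrmb legs.

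The genes of the VPS4 ATPase, *Vps4a* and *Vps4b*, differed by 0.27 ± 0.26 and 0.17 ± 0.20 (SE). For *Vps4a* the scrmb values of 8.66, 9.62, 8.98 and 9.81 covered the whole span of the MYTHO values of 9.58, 9.58, 9.25 and 9.75.

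Return of cargo from the endosome is the work of retromer, a trimer of VPS35, VPS29 and a VPS26 subunit. All 4 of its genes lay between -0.13 and 0.04, and *Vps35*, the scaffold and brightest of them, was at 12.39, 12.20, 12.25 and 12.11 in scrmb and at 12.17, 12.20, 11.92 and 12.15 in MYTHO. Its 95% interval, -0.49 to 0.23, is among the tightest of the set. *Vps26b* was lower in the MYTHO leg of all 4 animals, by 0.04 to 0.22 on the log2 scale, with overlapping groups and a limma adjusted p of 0.846. The mean over the retromer genes was 0.43 lower in the MYTHO leg of animal C and 0.03 to 0.08 higher in the other animals.

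The HOPS and CORVET tethers and their relatives held both the highest member and one of the lowest. *Vps33b* codes for the SNARE-binding protein that pairs with VIPAS39 in place of the VPS33A and VPS16 pair of HOPS. Its log2 signals in animals A to D were 5.99, 5.53, 5.54 and 4.92 in scrmb and 6.32, 6.39, 6.59 and 5.73 in MYTHO. All 4 animals had more in the MYTHO leg, by 0.33 to 1.05, while the groups overlapped since the MYTHO value of D was below the scrmb value of A. The mean difference was 0.76 ± 0.25 (SE, 1.70-fold), with a 95% interval of 0.21 to 1.32, an unadjusted limma p of 0.0114 and an adjusted p of 0.258. With animal as a block the unadjusted limma p was 0.0035 and the adjusted p 0.198. This probe set is dim, with a mean of 5.88 below the array median, and its partner *Vipas39* differed by 0.01.

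*Vps8*, whose product is specific to CORVET, the tether of early endosomes, had the second lowest fold change of all members. It was at 8.64, 7.65, 7.82 and 8.04 in scrmb and at 7.51, 7.97, 7.09 and 7.50 in MYTHO. The legs differed by -1.13, 0.32, -0.73 and -0.54 in animals A to D, so animal B went the other way, and the limma adjusted p was 0.431. *Vps16*, a core subunit of both tethers, was higher in all 4 MYTHO legs, by 0.18 to 0.65, with a mean of 0.35 ± 0.18 (SE) and an adjusted limma p of 0.471. *Vps39*, specific to HOPS, was lower in all 4 by 0.06 to 0.83, with a mean of -0.35 ± 0.20 (SE). The core gene *Vps33a* differed by 0.31 and *Vps11* by -0.23, while *Vps18* and *Vps41* differed by -0.01 and -0.05. The median over the 8 tether genes was -0.03.

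Among the 5 GARP and EARP genes the values ran from -0.35 (*Vps50* and *Vps54*) to 0.20 (*Vps52*), and each had an animal in which the legs differed the other way. *Vps50* is specific to EARP and *Vps54* to GARP. The 4 Vps13 genes all had a positive value, from 0.16 for *Vps13a* to 0.33 for *Vps13d*, with a median of 0.21. Their lowest limma adjusted p was 0.514. *Vps13c*, which acts at contacts of the endoplasmic reticulum with late endosomes, was at 11.05, 11.20, 11.21 and 10.89 in scrmb and at 11.35, 11.27, 11.28 and 11.21 in MYTHO. It was higher in all 4 MYTHO legs, by 0.07 to 0.32, and the groups met at 11.21. The mean over the Vps13 genes was 0.12 lower in the MYTHO leg of animal C and 0.14 to 0.56 higher in the others. Of the remaining Vps symbols, *Vps45*, which codes for a regulator of endosomal SNAREs, differed by 0.35, *Vps9d1*, named for a VPS9 domain, by 0.31, and *Vps72*, which codes for a chromatin remodelling subunit, by -0.09.

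**Figure D3:**
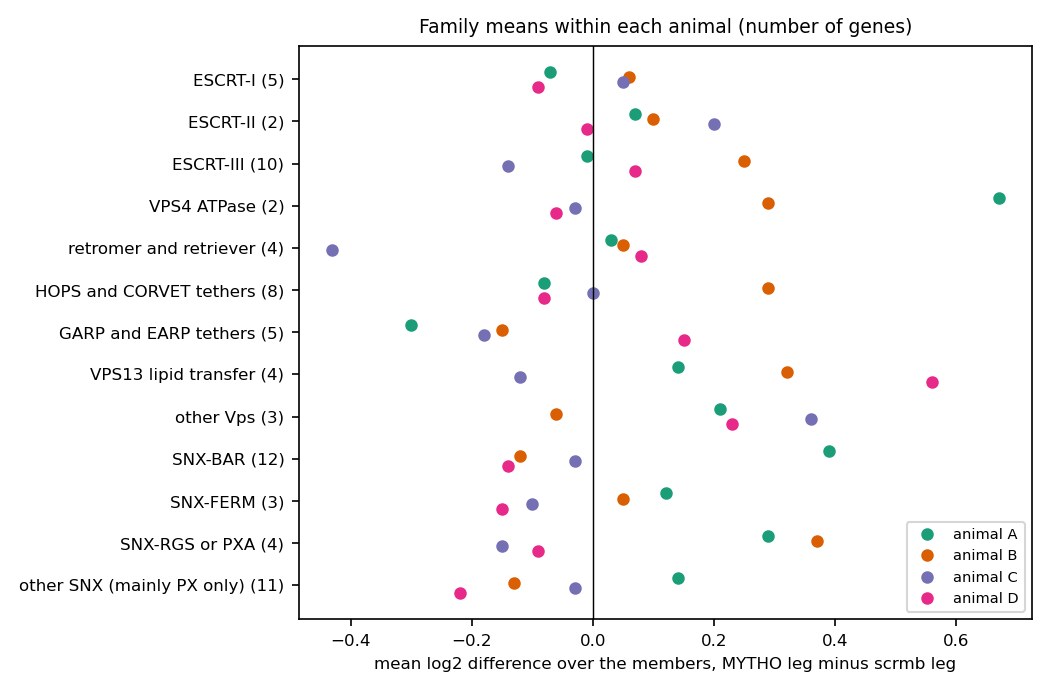
Mean log2 difference between the MYTHO and the scrmb leg over the genes of each group (x axis), 1 point per animal, with the number of genes in parentheses. No group has its 4 animals on the same side of 0; the Vps13 genes, for example, run from -0.12 in animal C to 0.56 in animal D.

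The sorting nexins with a BAR domain bend membranes into recycling tubules and hold 3 of the 5 members whose groups did not overlap. *Snx2*, a partner of retromer, was at 10.25, 10.26, 10.09 and 10.54 in scrmb and at 10.03, 9.28, 9.78 and 10.04 in MYTHO. It was lower in the MYTHO leg of every animal, by 0.22 to 0.98, with a mean of -0.50 ± 0.21 (SE, 0.706-fold). The unadjusted limma p was 0.0336 and the adjusted p 0.358. *Snx4*, known for recycling of the transferrin receptor and for a role in autophagy, was at 8.24, 8.20, 8.44 and 8.47 in scrmb and at 8.87, 8.57, 8.59 and 8.75 in MYTHO. Here every MYTHO array lay above every scrmb array, by a mean of 0.36 ± 0.17 (SE), with an unadjusted limma p of 0.0552 and an adjusted p of 0.417. *Snx30* was at 6.67, 7.11, 6.71 and 6.70 in scrmb and at 6.52, 6.32, 6.50 and 6.57 in MYTHO. All MYTHO values were below all scrmb values, with a mean difference of -0.32 ± 0.17 (SE, limma adjusted p = 0.493), and animal B, at -0.79 between its legs, differed most.

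Groups without overlap were thus seen for 2 members higher in MYTHO, *Vps37a* and *Snx4*, and for 3 lower, *Snx10*, *Snx2* and *Snx30*. Over all probe sets the same counts gave 2.59% and 3.87%, and over the members 2.74% and 4.11%. In 8 members (11.0%) the MYTHO leg was higher in 4 of 4 animals, against 8.94% of all probe sets: *Snx1*, *Snx3*, *Snx4*, *Vps13c*, *Vps16*, *Vps33b*, *Vps36* and *Vps37a*. In 5 members (6.85%) it was lower in 4 of 4, against 10.8%: *Snx10*, *Snx2*, *Snx30*, *Vps26b* and *Vps39*. The members' shares were close to the background in each of these counts or below it.

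**Figure D4:**
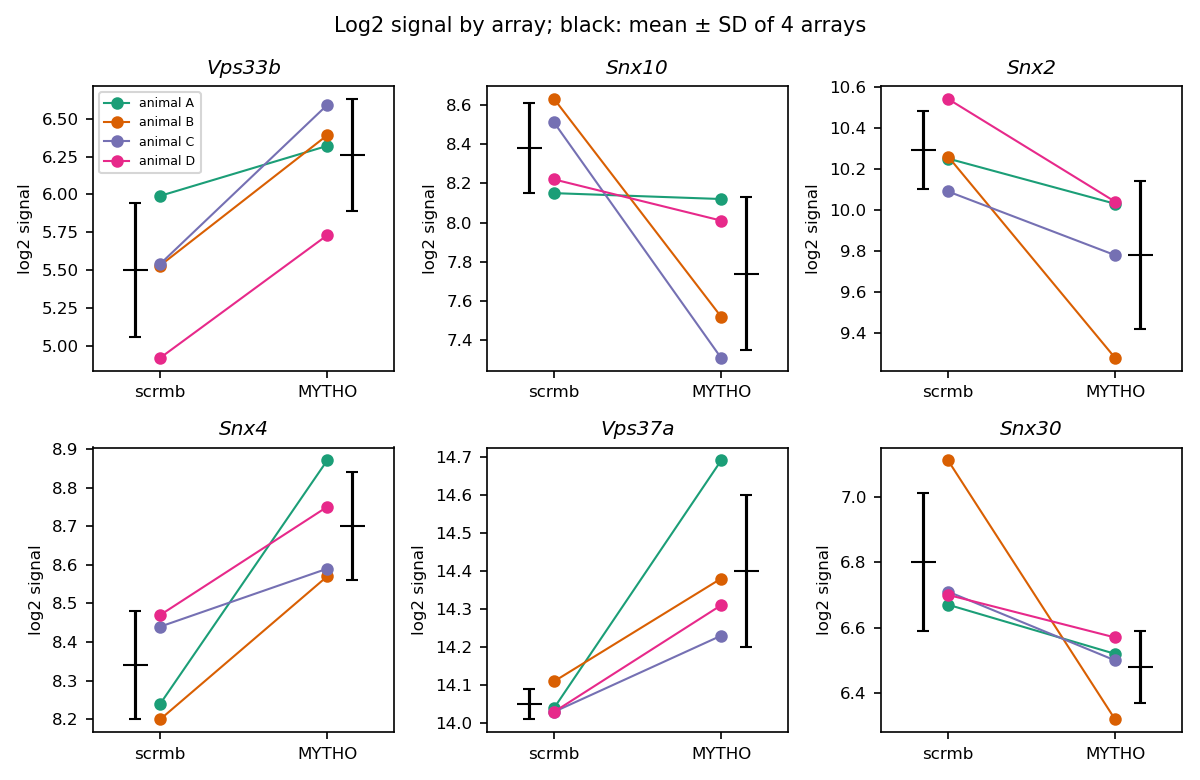
Log2 signal (y axis, scale set for each gene) of the 3 members with an unadjusted p under 0.05 (top row) and of 3 further members whose groups did not overlap (bottom row), with lines joining the legs of 1 animal and black bars for the mean ± SD of 4 arrays. *Vps33b* is higher in every MYTHO leg although the groups overlap, and *Snx10* differs by only -0.03 in animal A.

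SNX5 and SNX6 form dimers with SNX1 and SNX2. *Snx5*, the brightest sorting nexin with a BAR domain on this array, was at 14.27, 14.30, 14.16 and 13.80 in scrmb and at 13.86, 13.70, 13.15 and 14.03 in MYTHO. Animals A, B and C had less in the MYTHO leg and animal D more, and the mean difference was -0.45 ± 0.22 (SE, limma adjusted p = 0.438). *Snx6* differed by 0.21 ± 0.18 and *Snx1* by 0.32 ± 0.22 (SE). *Snx7*, whose protein pairs with SNX4 or SNX30, differed by 0.39 ± 0.28 (SE), with animals A and D at 1.36 and 0.85 and animals B and C at -0.13 and -0.54.

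Close relatives were also set against each other within each array, which removes any shift common to an array. The log2 signal of *Snx1* minus that of *Snx2* was -4.30, -3.92, -3.35 and -3.93 in scrmb and -3.05, -2.89, -3.01 and -3.26 in MYTHO. The groups did not overlap and the difference was 0.82 higher in MYTHO, in 4 of 4 animals. Since 2 probe sets differ in brightness for technical reasons, only the change of this difference between groups can be read. For *Snx5* minus *Snx6* the change was -0.66, lower in all 4 animals, with overlap. It was 0.86 for *Vps37a* minus *Vps37d* and 0.70 for *Snx7* minus *Snx30*, each in 3 of 4 animals and with overlap. The other 7 of the 11 pairs changed by -0.45 (*Vps33a* minus *Vps33b*) to 0.11 (*Vps4a* minus *Vps4b*). The pairs were made with the members' values known, so they have no test.

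**Figure D5:**
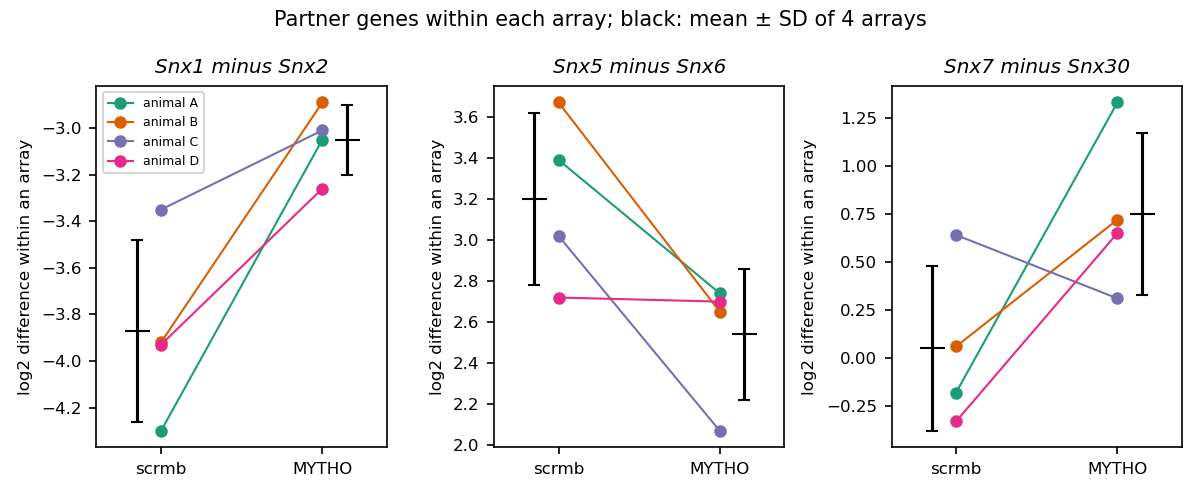
Difference in log2 signal between the genes of a pair within each array (y axis, scale set for each pair), with lines joining the legs of 1 animal and black bars for the mean ± SD of 4 arrays. Only for *Snx1* minus *Snx2* do the MYTHO arrays, at -3.26 to -2.89, lie clear of the scrmb arrays, at -4.30 to -3.35.

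The sorting nexins with a FERM domain link receptors to retromer or to retriever. *Snx27*, *Snx17* and *Snx31* lay between -0.09 and 0.02, and *Snx27* had an interval of -0.48 to 0.30. Of the nexins with an RGS or PXA domain, *Snx25* differed by 0.47 ± 0.27 (SE), with the animals at 1.01, 1.04, 0.35 and -0.53, and its limma adjusted p was 0.523. *Snx13*, *Snx14* and *Snx19* lay between -0.20 and 0.09.

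The remaining nexins, most of them little more than a PX domain, held the lowest fold change of the set. *Snx10*, known from the vacuolar proton pump and from bone resorption by osteoclasts, was at 8.15, 8.63, 8.51 and 8.22 in scrmb and at 8.12, 7.52, 7.31 and 8.01 in MYTHO. The groups did not overlap, though the lowest scrmb value and the highest MYTHO value were 0.03 apart, both in animal A. Animals B and C, at -1.11 and -1.20 between their legs, made up most of the mean of -0.64 ± 0.22 (SE, 0.643-fold). The unadjusted limma p was 0.0139 and the adjusted p 0.273. *Snx3*, which recycles the transferrin receptor and Wntless with retromer, had the highest mean signal of all members. It was at 14.21, 14.26, 13.85 and 14.50 in scrmb and at 14.63, 14.69, 14.48 and 14.60 in MYTHO, higher in all 4 MYTHO legs by 0.10 to 0.63. The scrmb value of animal D lay above the lowest MYTHO value, and the difference of 0.40 ± 0.18 (SE) had an unadjusted limma p of 0.0520 and an adjusted p of 0.408. *Snx21* differed by 0.40 ± 0.31 (SE), with its scrmb array of animal D at 5.95 against 4.52 to 4.77 in the other scrmb legs.

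*Snx29* had a second probe set that did not follow the first. The brighter one differed by -0.04 ± 0.36 (SE). The dimmer one was at 5.25, 4.84, 5.39 and 5.83 in scrmb and at 6.16, 5.93, 6.21 and 5.70 in MYTHO, a difference of 0.67 ± 0.23 (SE) with an unadjusted limma p of 0.0118 and an adjusted p of 0.261. Animal D went the other way.

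Genes that work with these proteins but carry other names were read from lists. Over the 53 genes of these lists, 4 (7.55%) were higher and 2 (3.77%) lower in MYTHO at an unadjusted limma p under 0.05. Of all probe sets, 4.81% were higher and 7.58% lower, so the lists had a larger share higher and a smaller share lower. With counts of 4 and 2 genes, no direction was read from this. Of 14 ESCRT partners, such as *Hgs*, *Tsg101* and *Pdcd6ip*, 0 passed an unadjusted limma p of 0.05 in either direction. Of 17 genes of the WASH and CCC complexes, which build actin on endosomes and serve retriever, 1 was higher and 1 lower. *Commd7* was at 9.33, 9.03, 9.06 and 9.30 in scrmb and at 9.81, 9.87, 10.20 and 9.38 in MYTHO, without overlap (0.64 ± 0.20 SE, limma adjusted p = 0.236). *Commd9* was lower in all 4 animals, with a mean of -0.70 ± 0.26 (SE, limma adjusted p = 0.307). Both code for subunits of the same COMMD ring.

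Of 11 tether and fusion partners, 1 was higher and 1 lower at that level, and both are SNAREs of late endosome fusion. *Vti1b* was at 9.54, 9.36, 9.61 and 9.49 in scrmb and at 10.22, 10.26, 9.88 and 10.31 in MYTHO, without overlap. The difference was 0.67 ± 0.17 (SE), with an unadjusted limma p of 0.00222 and an adjusted p of 0.155. *Vamp7* differed by -0.49 ± 0.19 (SE, limma adjusted p = 0.324), in 3 of 4 animals. *Rab7*, the small GTPase of late endosomes, did not reach that level but was without overlap, at 18.20, 18.28, 18.23 and 18.17 in scrmb and at 17.86, 17.69, 17.97 and 17.97 in MYTHO. Its difference was -0.35 ± 0.16 (SE, limma adjusted p = 0.408), lower in all 4 animals. Of 5 genes that bear a Vps or Chmp name only as a synonym, 1 was higher: *Vps35l*, the scaffold of retriever, listed on the array as *9030624J02Rik*, at 8.13, 8.08, 8.17 and 8.48 in scrmb and at 8.81, 8.83, 8.39 and 8.85 in MYTHO. It was higher in all 4 animals, with overlap (0.51 ± 0.18 SE, limma adjusted p = 0.293).

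Of 6 receptors that this machinery sorts, 1 passed the adjusted threshold. *Tfrc*, the transferrin receptor that brings iron into the cell, was at 12.94, 12.45, 12.61 and 12.51 in scrmb and at 14.02, 14.02, 13.73 and 13.86 in MYTHO. It rose by 1.28 ± 0.18 (SE, 2.43-fold, limma adjusted p = 0.0464), in all 4 animals and without overlap. The call was lost with animal as a block (limma adjusted p = 0.156) and when any 1 array other than the scrmb array of animal D was left out (limma adjusted p of 0.0443 to 0.218 over the 8 arrays), while the log2 fold change stayed between 1.22 and 1.38. The other 5 receptors, *Igf2r*, *M6pr*, *Sort1*, *Sorl1* and *Lrp1*, lay between -0.44 and 0.11. Transcript levels say nothing of where a receptor sits in the cell. The part of the slow fibre and endothelial markers given above in these values was not tested; the mean of the slow fibre list was 13.70 and 14.88 in the legs of animal A, 11.91 and 14.43 in B, 11.94 and 14.81 in C, and 11.61 and 11.68 in D, scrmb first.

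Promoter sequence was read for 48 of the 73 members from RefSeq windows on GRCm38.p6, each 300 bases long, from 250 bases before to 50 after a gene's start. The E-box TCACGTGA, the core of the CLEAR element bound by the lysosomal regulators TFEB and TFE3, reads the same on both strands and was in the windows of 3 members (6.25%), against 1.12% of all 27025 genes with a window. These were *Vps16*, *Vps33a* and *Vps26a*, whose log2 fold changes were 0.35, 0.31 and -0.06. The FoxO core GTAAACA, searched on both strands, was in 2 members, *Vps26b* and *Vps45* (4.17%, against 4.05% of all genes). The windows with the E-box are shown because 2 of these genes code for the VPS33A and VPS16 pair of HOPS; capitals mark the E-box, which occurs once in *Vps16* (chr2:130424070-130424369, plus strand), 2 times in *Vps33a* (chr5:123572966-123573265, minus strand) and once in the window shown of *Vps26a* (chr10:62486756-62487055, minus strand), whose other window holds it once too and is not printed.
Vps16: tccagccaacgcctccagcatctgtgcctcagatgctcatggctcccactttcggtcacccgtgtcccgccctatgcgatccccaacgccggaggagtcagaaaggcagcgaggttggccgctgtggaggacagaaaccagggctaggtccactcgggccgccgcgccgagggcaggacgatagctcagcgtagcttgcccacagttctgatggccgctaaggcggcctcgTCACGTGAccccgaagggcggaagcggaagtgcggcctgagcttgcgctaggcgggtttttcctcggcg
Vps33a: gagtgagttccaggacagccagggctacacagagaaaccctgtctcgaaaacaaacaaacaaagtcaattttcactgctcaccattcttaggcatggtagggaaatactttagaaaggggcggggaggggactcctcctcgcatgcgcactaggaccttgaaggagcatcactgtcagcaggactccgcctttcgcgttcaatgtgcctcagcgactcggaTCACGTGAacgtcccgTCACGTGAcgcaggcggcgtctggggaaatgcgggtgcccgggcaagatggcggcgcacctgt
Vps26a: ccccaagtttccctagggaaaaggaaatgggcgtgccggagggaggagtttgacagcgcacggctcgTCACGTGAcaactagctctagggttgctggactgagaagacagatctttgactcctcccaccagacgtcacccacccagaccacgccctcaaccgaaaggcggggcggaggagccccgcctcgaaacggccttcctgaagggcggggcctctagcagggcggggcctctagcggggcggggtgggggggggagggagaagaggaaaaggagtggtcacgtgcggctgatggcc
A match of letters is not a binding site that was measured.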

How the data were processed

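GAS muscle RNA from 8 legs of 4 animals was isolated with Trizol, and biotin-labelled samples were run on Clariom S Mouse arrays. The authors deposited log2 signals per gene-level probe set, made with the Transcriptome Analysis Console 4.0.1 by SST-RMA (background correction, quantile normalization and median polish) with mm10 annotation. The signals run from 2.38 to 19.93 and have 2 decimals. Normalization of this kind sets the arrays to a common distribution, so a shift shared by most genes is not visible. The authors' group averages, fold changes, p-values and false discovery rates were not used.

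The arrays were compared as MYTHO minus scrmb with limma 3.58.1 in R 4.3.3 (lmFit and eBayes, default settings, two-sided, Benjamini-Hochberg over all 22206 probe sets), without a block, as the study's array methods name none. The code was tested on simulated data. Fold changes are differences of group means of log2 signals. The number of arrays, 4 per group, limits the precision. The members, families, lists and the naming rule were chosen with earlier results of these data known. By that rule, the 5 members of highest and of lowest fold change, those with an unadjusted p under 0.05, the brightest of each family, their paralogs, the targeted gene and list genes with an unadjusted p under 0.05 were named, and members that other counts single out were added after their values were seen. Markers of T cells, fibroblasts, adipocytes, Schwann cells and blood were also read: of 7, 6, 5, 6 and 4 matched genes, 1 fibroblast gene (*Dcn*, -0.59) had an unadjusted limma p under 0.05.

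Each column name holds an animal number found in both groups, and the legs of an animal were injected with the 2 viruses, so arrays pair by animal. Deviations from the group means correlated within animals at 0.00266, -0.00145, 0.135 and 0.0871. Nothing links the labels' own replicate numbers to columns, and the block therefore used the animal. Alternatives were quantile normalization, median centring, 2 filters on low signal, array weights, a trended and robust eBayes, removal of saturated probe sets, 1 probe set per symbol, the next probe set of a symbol, fixed and random animal blocks, and leaving out each array. Figures were drawn with matplotlib 3.10.9.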

Additional observations from a re-analysis of the deposited data

Results flagged for a closer look

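Each member's 4 arrays of a group were checked for a single array far from the other 3, by the gap to its nearest neighbour as a share of the group's range, with a limit of 0.829. Of 146 such groups, 5 passed, and chance alone passes about 1 in 20. *Snx30* in scrmb had animal B at 7.11 against 6.67 to 6.71 (share 0.909), and without that array the difference between groups kept its sign. *Vps37a* in scrmb had animal B at 14.11 against 14.03 to 14.04 (0.875), a gap of little size that arises because the other 3 values nearly coincide. *Snx19* passed in both groups, with the scrmb leg of animal A at 9.02 against 9.33 to 9.37 (0.886) and the MYTHO leg of animal C at 8.66 against 9.18 to 9.24 (0.897). *Chmp7* in scrmb had animal D at 9.51 against 8.32 to 8.52 (0.832).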

How the results depend on the processing

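No member passed an adjusted p of 0.05 under any of the 19 alternatives, where the lowest limma adjusted p among the members ran from 0.174 (without the scrmb array of animal D) to 0.437. The count of all probe sets past that threshold, 6 in the report, depended much on the setting. It was 160 with trend and robust, 60 without saturated probe sets and 44 after median centring. Without the scrmb array of animal D it was 154, and without any 1 of the other arrays it was 1. With animal as a fixed replicate block, 0 members passed the adjusted threshold, and the unadjusted counts were again 1 higher and 2 lower, the same genes; among the genes reported it ended only the call of *Tfrc*, at a limma adjusted p of 0.156. The knockdown of *D230025D16Rik* passed under every alternative. The count of members higher at an unadjusted p under 0.05, 1 in the report, was 4 (*Snx3*, *Snx4*, *Vps33b* and *Vps37a*) after median centring. It was 3 with either signal filter, with trend and robust, with array weights and with a random animal block. With the next probe set of a symbol it was 2. The count lower, 2 in the report, was 1 (*Snx10*) after median centring. It was 3, with *Snx5* added, after quantile normalization and with trend and robust. Of all probe sets, 4.81% to 6.91% were higher and 6.34% to 9.11% lower under these settings. The cause of these shifts was not tested. *Vps33b* was left out by the stricter signal filter. Leaving out 1 array gave 1 to 5 higher and 2 to 4 lower, against 3.45% to 5.65% and 5.82% to 8.74% of all probe sets. Without overlap, 2 to 8 were higher and 3 to 5 lower. Leaving out an array can only add to these counts without overlap, and they have no share of all probe sets beside them. The scrmb array of animal D, which lay apart on the first principal component, gave the top of both higher counts when left out. These were 5 at an unadjusted p under 0.05 (*Snx21*, *Snx3*, *Vps33a*, *Vps33b* and *Vps45*), against 5.65% of all probe sets, and 8 without overlap. With the stricter signal filter, which leaves out dim members, 5 of the 13 family medians moved: to 0.13 for the remaining Vps symbols, 0.14 for ESCRT-I, 0.07 for the BAR nexins, -0.14 for HOPS and CORVET and -0.04 for the FERM nexins, so that ESCRT-I and the FERM nexins turned in sign. ESCRT-I also turned in sign with quantile normalization (0.03), median centring (0.02), the milder filter (0.05) and array weights (0.02), the FERM nexins with the milder filter (-0.04) and array weights (-0.01), and HOPS and CORVET with median centring (0.01), so these medians near 0 have no settled sign. Without 1 array the family medians ran from -0.04 to 0.13 for ESCRT-I, 0.02 to 0.19 for ESCRT-II, -0.03 to 0.10 for ESCRT-III, 0.11 to 0.34 for VPS4, -0.14 to -0.01 for retromer, -0.15 to 0.05 for HOPS and CORVET, -0.23 to -0.02 for GARP and EARP, 0.16 to 0.33 for VPS13, 0.16 to 0.38 for the remaining Vps symbols, 0.08 to 0.22 for the BAR nexins, -0.15 to 0.05 for the FERM nexins, 0.00 to 0.13 for the RGS or PXA nexins and -0.12 to 0.01 for the remaining nexins.

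Among the genes of the partner lists, for which the same alternatives were chosen after seeing the data, the count past the adjusted threshold was 1, *Tfrc*, in the report, 0 with the fixed replicate block, 0 with 1 probe set per symbol (limma adjusted p = 0.0542), and 0 to 1 without 1 array. The count lower at an unadjusted p under 0.05, 2 in the report, was 4 with trend and robust and 0 to 5 without 1 array. The count higher was 4 throughout.

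Of 1371 member values under the alternatives, 70 changed sign, and none of them had been past the adjusted threshold. With all arrays in, these were *Snx29* at 0.00, *Vps18* at 0.04 and *Vps37b* at 0.03 after quantile normalization; *Chmp2a* at 0.04, *Chmp6* at 0.01, *Vps18* at 0.03, *Vps37b* at 0.02 and *Vps37c* at 0.01 after median centring; *Chmp2a* at 0.00, *Chmp6* at 0.02, *Snx17* at -0.01, *Snx29* at 0.08 and *Vps37b* at 0.02 with array weights; and *Snx29* at 0.67 with its next probe set. Leaving out 1 array moved the log2 fold change across 0 for 26 genes, with ranges of -0.10 to 0.21 for *Chmp1a*, -0.07 to 0.09 for *Chmp2a*, -0.04 to 0.17 for *Chmp3*, -0.14 to 0.05 for *Chmp4b*, -0.24 to 0.10 for *Chmp4c*, -0.27 to 0.02 for *Chmp5*, -0.20 to 0.13 for *Chmp6*, -0.01 to 0.45 for *Chmp7*, -0.21 to 0.05 for *Snx11*, -0.09 to 0.20 for *Snx13*, -0.11 to 0.18 for *Snx15*, -0.17 to 0.15 for *Snx17*, -0.29 to 0.06 for *Snx22*, -0.24 to 0.32 for *Snx29*, -0.09 to 0.16 for *Snx31*, -0.18 to 0.05 for *Snx9*, -0.18 to 0.09 for *Vps18*, -0.15 to 0.01 for *Vps25*, -0.15 to 0.01 for *Vps26a*, -0.07 to 0.23 for *Vps29*, -0.14 to 0.13 for *Vps37b*, -0.13 to 0.07 for *Vps37c*, -0.17 to 0.07 for *Vps41*, -0.12 to 0.02 for *Vps51*, -0.23 to 0.09 for *Vps53*, -0.20 to 0.06 for *Vps72*. Arrays give no counts, so no counting error can be stated; 12 members lay below the median signal, where background weighs more.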
